A study of Sus scrofa with 6 samples.

Results

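ESR1, the gene of oestrogen receptor alpha, was followed in pools of pig oocytes before and after maturation in culture. It was the only gene chosen, and it was found by its symbol: of 12258 probes, 1 carried ESR1 as its only gene symbol in the platform annotation, out of 9828 named genes measured. The gene was selected on its log2 values in these same 6 arrays, which differed between the groups, so its own difference is given as a description without a test. All 6 arrays gave a value for it, and no filter on low values was applied to it.

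Oestrogen receptor alpha is a nuclear receptor. Held in the unbound state by HSP90 and its partner chaperones, it binds oestradiol, pairs with another receptor molecule, sits on oestrogen response elements in DNA and recruits coactivators that open chromatin for transcription. In the mammalian ovary oestradiol is made mainly by granulosa cells from androgens of the theca, and the alpha and beta receptors are both known from follicles, the beta form chiefly from granulosa cells.

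The 3 matured pools were cultured as cumulus-oocyte complexes, in which layers of somatic cumulus cells surround the egg cell, for 44 h at 38 °C under 5% CO2 in TCM-199 medium with 10% porcine follicular fluid, hCG and eCG. They were set against 3 pools of oocytes taken before this culture, which the titles call in vivo oocytes. Every pool held 50 grade I oocytes of pubertal crossbred Landrace gilts, and 100 ng of RNA per pool went through 2 rounds of amplification before hybridisation to an Affymetrix array. Whether cumulus cells were removed before RNA extraction, and which pools belong to which class of the dye test named in the design text, is not given in the sources used here. The effects of culture and of maturation cannot be told apart, since no pool had one without the other. The pools are labelled biological replicates, array medians lay between 5.62 and 5.70 on the log2 scale, and 3 arrays a group limit the precision of every value below.

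ESR1 had log2 levels of 4.30, 3.71 and 4.17 in the matured pools, replicates 1, 2 and 3, against 7.09, 7.67 and 8.27 in the pools before maturation. The groups did not overlap, as for 36.1% of all probes in either direction: the highest matured pool lay 2.79 below the lowest pool before maturation. The means were 4.06 ± 0.31 after maturation and 7.68 ± 0.59 before it (SD, n = 3 each), a log2 difference of -3.61 with a standard error of 0.39 from the group SDs. On the linear scale the measured level was 12.3-fold lower after maturation. The difference between arrays of the same replicate number, after minus before, was -2.79, -3.96 and -4.10 for replicates 1, 2 and 3.

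The matured level was dim on the array. Of all probes, 23.5%, 9.77% and 21.5% lay below ESR1 in matured replicates 1, 2 and 3, against 65.4%, 72.3% and 79.1% in the replicates before maturation. All 3 matured values were thus under the lower quartile of their array (4.33 to 4.45), and detection above background was not assessed, so the measured fold is not exact and the true fold can be larger. Relative to the median difference of all probes, 0.08, the ESR1 difference was -3.69. It was the 10th most negative of 12258 probes, among 405 (3.3%) that were lower by at least 2-fold.

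ESR1 also varied more between pools than most genes did. Its SD before maturation, 0.59, was above that of 99.1% of probes, whose median SD was 0.13. Its SD after maturation, 0.31, was above that of 95.9% of probes, whose median SD was 0.12. Its range was 0.59 within the matured group and 1.18 within the group before maturation. A spread of this size was not particular to ESR1: among the 8 genes of nearest profile, the SD before maturation ran from 0.19 for EDA to 0.64 for PRKCB.

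More markers of the somatic cells around the oocyte were called lower than higher after maturation in the same arrays. Of 18 measured cumulus and granulosa markers 10 fell and 2 rose with limma at an adjusted p under 0.05, where 8.07% of all probes fell and 3.21% rose, and the median difference of these markers was -0.87, against 0.08 for all probes. SERPINE2, a protease inhibitor gene, fell by 2.92 on the log2 scale, and GJA1, which encodes a connexin of gap junctions, fell by 2.27 (limma adjusted p = 8.94e-06 and 2.45e-05). The largest changes in the list went opposite ways: HSD17B1 fell by 4.41 and HSD3B1 rose by 3.95 (limma adjusted p = 2.12e-05 and 1.49e-05). GSTA1 rose by 1.30 (limma adjusted p = 0.000506), although the near-identical copies of its family make its level uncertain. Decreases were 71.5% of all calls, and 59.2% with a repeated quantile normalization, 49.3% with a common median, 84.9% with oocyte markers held level and 2.74% with ribosomal protein genes held level. The mean log2 level of the markers ran from 6.67 to 6.78 in the matured pools and from 7.39 to 7.79 in the pools before maturation, and their summed log2 level from 120.1 to 122.1 and from 132.9 to 140.2 in the same order of groups. The list was chosen with earlier results of these data known, so its counts and means are a description. It holds HSD17B1, HSD3B1, NR5A1 and NR5A2, which stand in other lists as well. No marker was listed at 0, and at most 1 of the 18 lay under the lower quartile of any array.

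Before maturation ESR1 and the mean of these markers were both lowest in replicate 1 and highest in replicate 3. Of all named genes 32.1% were lowest in replicate 1 and 31.8% highest in replicate 3, and the mean includes HSD17B1, which had this order too. The mean marker level was 7.39, 7.55 and 7.79 in replicates 1, 2 and 3, where ESR1 was at 7.09, 7.67 and 8.27. In the matured pools it was 6.78, 6.71 and 6.67, where ESR1 was at 4.30, 3.71 and 4.17, so the lowest ESR1 value did not fall on the lowest marker mean there. ESR1 minus the marker mean was -3.00 to -2.48 after maturation and -0.30 to 0.48 before it. The part of the somatic markers in the ESR1 difference was not tested, and in such pools fewer cells of a type and less RNA per cell cannot be told apart.

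**Figure D1:**
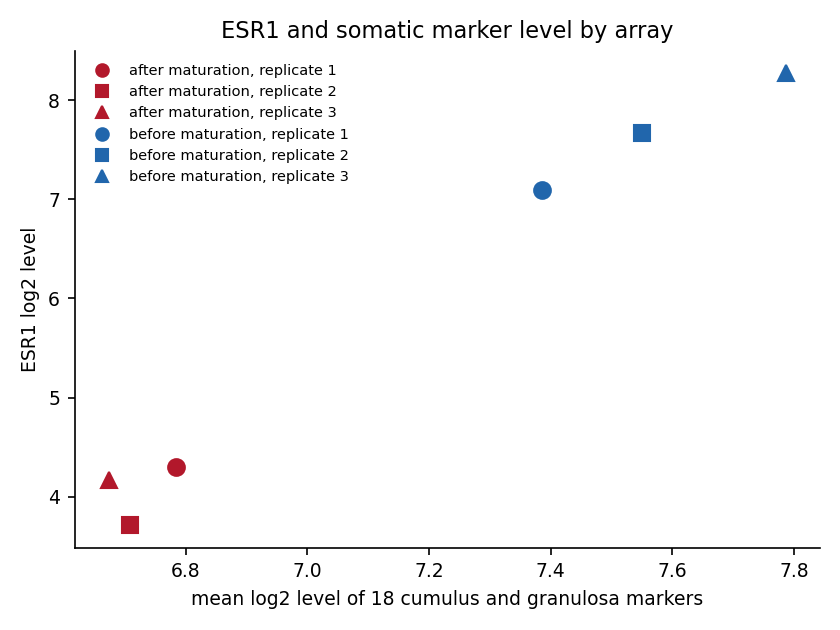
ESR1 log2 level (vertical axis) against the mean log2 level of 18 cumulus and granulosa markers (horizontal axis), 1 point per array, red after and blue before maturation. The 3 matured pools lie at 3.71 to 4.30 for ESR1 and 6.67 to 6.78 for the markers, the 3 pools before maturation at 7.09 to 8.27 and 7.39 to 7.79.

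The oocyte markers checked the tissue label and were bright in every array. The mean log2 level of 20 measured markers was 10.2 to 10.3 in the matured pools and 10.2 to 10.3 in those before maturation. BMP15, a growth factor gene of the oocyte, averaged 12.19 ± 0.01 after and 12.07 ± 0.04 before maturation (SD, n = 3 each, limma adjusted p = 0.395), and GDF9, its partner, averaged 11.06 ± 0.04 after and 11.01 ± 0.03 before (limma adjusted p = 0.681). Of the 20 markers 3 fell (KIT, ZP3 and ZP4) and 0 rose with limma, against 8.07% and 3.21% of all probes. At an unadjusted p under 0.05, 3 were lower and 3 higher, a count without a computed share of all probes beside it. KIT, a receptor kinase gene, fell by 1.22, and ZP3 and ZP4, which encode proteins of the zona pellucida, by 0.70 and 0.40 (limma adjusted p = 0.0011, 0.0104 and 0.0343). ZP4 lost the call without any 1 of the 6 arrays (adjusted p between 0.0640 and 0.0972).

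Of the other steroid receptors, few differed beyond the test's threshold. All had smaller differences than ESR1, which was chosen for its difference, so this contrast is a description. Of 14 other members of the list 11 were measured: 1 fell (PGRMC1), 0 rose and 10 did not pass limma's test at an adjusted p under 0.05, where 8.07% of all probes fell and 3.21% rose. At an unadjusted p under 0.05, 2 of the 11 were lower and 1 higher, and the share of all probes at that threshold was not computed. The median difference of the 11 genes was 0.15, against 0.08 for all probes, and they ran from -0.82 to 0.52. GPER1, the gene of the membrane oestrogen receptor, and ESRRG were not matched by name and were not analysed here.

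ESR2, the gene of oestrogen receptor beta, had log2 levels of 7.93, 7.71 and 7.72 in the matured pools, against 7.41, 7.58 and 7.53 before maturation. The groups did not overlap, as for 21.7% of probes in the higher direction, and the difference of 0.28 with a standard error of 0.10 did not pass limma's test (adjusted p = 0.116). ESR2 was called higher with a repeated quantile normalization (adjusted p = 0.0488) and when ribosomal protein genes were held level (adjusted p = 0.00034). Holding ribosomal protein genes level raised the median difference of all probes by 0.72 and called 10201 of 12258 probes higher. Because ESR1 was chosen for its difference, the 2 oestrogen receptor genes were not tested against each other. Their levels come from different probes and cannot be ranked within an array.

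PGR, the progesterone receptor gene and a textbook target of oestrogen receptor alpha, had 6.03, 5.92 and 5.91 in the matured pools, against 6.14, 5.81 and 6.13 before maturation. These overlapped, with a difference of -0.08 (limma adjusted p = 0.683). PGRMC1, a membrane component of progesterone signalling, had 7.74, 7.33 and 7.48 in the matured pools, against 8.09, 8.18 and 8.74 before maturation, without overlap. It fell by 0.82 (standard error 0.18, limma adjusted p = 0.0255) and lost the call without replicate 1, 2 or 3 after maturation (adjusted p = 0.0502, 0.103 and 0.0745).

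PGRMC2, the related component, had a difference of -0.30 (limma adjusted p = 0.104). The membrane progestin receptor genes PAQR5, PAQR7 and PAQR8 had differences of 0.21, 0.52 and 0.05, none past limma's threshold (adjusted p = 0.287, 0.209 and 0.775). PAQR7 was called higher with the replicate number as a block (adjusted p = 0.0312). The glucocorticoid receptor gene NR3C1 and the mineralocorticoid receptor gene NR3C2 had differences of -0.12 and 0.19, and the oestrogen-related orphan receptor genes ESRRA and ESRRB had 0.15 and 0.19 (limma adjusted p between 0.262 and 0.404). Apart from PGRMC1, the 10 receptor genes thus had differences between -0.30 and 0.52.

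**Figure D2:**
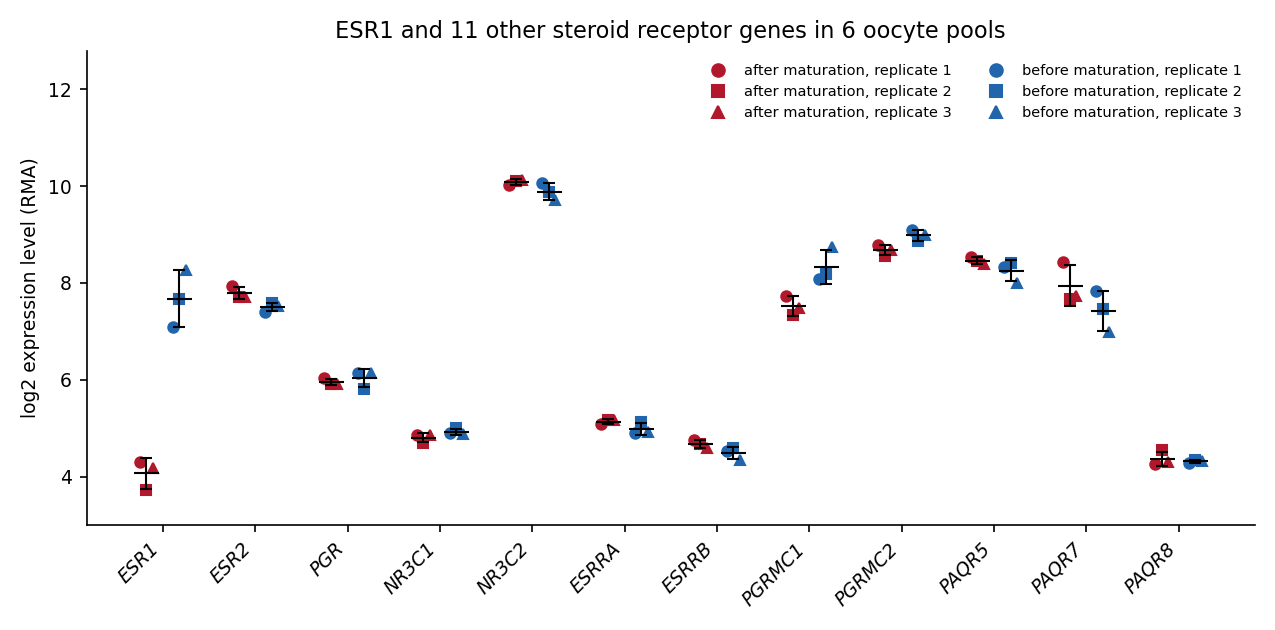
Log2 expression level of ESR1 and 11 other steroid receptor genes (vertical axis) in each array, red after and blue before maturation, with bars for the mean and SD of 3 arrays. ESR1 lies at 3.71 to 4.30 after and 7.09 to 8.27 before maturation, and PGRMC1, the only other gene called, differs by -0.82.

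Further members of the nuclear receptor superfamily moved in both directions. Of 39 listed 27 were measured, of which 4 fell, 2 rose and 21 did not pass, against 8.07% and 3.21% of all probes, and the median difference was -0.0038, against 0.08 for all probes. NR5A1, the gene of steroidogenic factor 1, which drives genes of steroid synthesis, had 5.95, 5.54 and 5.89 in the matured pools, against 6.99, 6.93 and 7.17 before maturation, and fell by 1.23 (limma adjusted p = 0.000755). Groups without overlap were a condition for naming this gene, and 14.4% of all probes had them in the lower direction. THRB, a thyroid hormone receptor gene, fell by 0.79 and the orphan receptor gene RORA fell by 1.38 (limma adjusted p = 0.00412 and 0.0123), with 2 of 3 matured values of each under the array's lower quartile. RORA lost the call without replicate 1 or 2 after maturation (adjusted p = 0.0636 and 0.0620).

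NR6A1, the gene of germ cell nuclear factor, rose by 0.35 (limma adjusted p = 0.0322) and lost the call without any 1 of the 6 arrays (adjusted p between 0.0520 and 0.101). The remaining calls were THRA, higher by 0.45, and NR5A2, lower by 1.05 (limma adjusted p = 0.0461 and 0.0462). They were named after their values were seen. THRA lost the call with the replicate number as a block (adjusted p = 0.0503) and without any 1 of the 6 arrays, and NR5A2 lost it without any 1 array other than replicate 1 before maturation. The count of genes called lower in this list was 2 without replicate 1 or 2 after maturation, and the count called higher was 0 or 1 without any 1 array.

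Genes that make or inactivate steroid hormones had calls in both directions, led by HSD17B1 and HSD3B1. Of 31 listed 14 were measured, of which 4 fell and 2 rose, against 8.07% and 3.21% of all probes, and the median difference was -0.07. The aromatase gene CYP19A1, STAR and CYP11A1 were among the 17 not matched and were not analysed here. HSD17B1, whose enzyme turns oestrone into oestradiol, had 5.34, 5.07 and 5.07 in the matured pools, against 8.96, 9.80 and 9.96 before maturation, a measured 21.3-fold lower level (limma adjusted p = 2.12e-05). HSD3B1, whose enzyme makes progesterone from pregnenolone, had 8.64, 7.80 and 8.16 in the matured pools, against 4.34, 4.30 and 4.11 before maturation, a measured 15.4-fold higher level (limma adjusted p = 1.49e-05). For HSD3B1, 2 of the 3 values before maturation lay under the array's lower quartile and detection was not assessed, so this fold is not exact. Before maturation ESR1 and HSD17B1 were both lowest in replicate 1 and highest in replicate 3, where 32.1% and 31.8% of all named genes were.

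Other members of this list changed by less than 2-fold. FDXR, which passes electrons to the mitochondrial steroid hydroxylases, fell by 0.68, and HSD17B10, a mitochondrial dehydrogenase gene, fell by 0.45 (limma adjusted p = 0.0184 and 0.0219). FDXR and HSD17B10 lost the call without replicate 1 or 2 after maturation or replicate 2 before it (adjusted p between 0.0516 and 0.0822), and both were positive, 0.04 and 0.27, with ribosomal protein genes held level. HSD17B8 (-0.62) and the steroid sulphatase gene STS (0.38), named after their values were seen, were the remaining calls (limma adjusted p = 0.0493 and 0.0251). HSD17B8 lost the call without any 1 array other than replicate 1 before maturation, and STS without any 1 of the 6 arrays. The count called lower was 1 without replicate 1 or 2 after maturation or replicate 2 before it, and the count called higher was 1 without any 1 of the 6 arrays.

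Genes of the chaperones and cofactors that act with steroid receptors mostly did not pass the test. Of 47 listed 27 were measured, of which 3 fell, 3 rose and 21 did not pass, against 8.07% and 3.21% of all probes, and the median difference was 0.02. PTGES3, the gene of the HSP90 cochaperone p23, had 5.91, 5.74 and 6.10 in the matured pools, against 7.25, 7.25 and 7.91 before maturation, and fell by 1.55 (limma adjusted p = 0.0014). Its groups lay more than 1 log2 unit apart. The HSP90 genes themselves, HSP90AA1 and HSP90AB1, had differences of -0.18 and -0.15, and the coactivator gene NCOA3 had 0.27 (limma adjusted p = 0.239, 0.357 and 0.129). These 3 were named for their roles after their values were seen.

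TFAP2C, a transcription factor that binds beside oestrogen receptor alpha in human breast cells, rose by 0.66 (limma adjusted p = 0.0084). UBE3A, a ubiquitin ligase gene, fell by 0.54 and CAV1, the gene of the membrane scaffold caveolin 1, rose by 0.49 (limma adjusted p = 0.0232 and 0.0402). UBE3A lost the call without replicate 1 or 2 after maturation or replicate 2 or 3 before it (adjusted p between 0.0581 and 0.0880), and it was positive (0.18) with ribosomal protein genes held level. CAV1 lost the call without any 1 array other than replicate 1 after maturation (adjusted p between 0.0522 and 0.127). All 3 values of CAV1 before maturation lay under the array's lower quartile. NCOR1 (0.40) and PPID (-0.50) were the remaining calls, named after their values were seen (limma adjusted p = 0.0483 and 0.0451). NCOR1 lost the call without any 1 array other than replicate 2 before maturation, and PPID without any 1 other than replicate 1 before it. PPID also lost it with each of the 5 other scalings. The count called lower was 1 without replicate 1 or 2 after maturation or replicate 2 or 3 before it, and the count called higher was 1 without replicate 2 or 3 after maturation or replicate 1 or 3 before it.

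Genes known to respond to oestradiol, mostly from human breast cells, had calls in both directions. Of 57 listed 34 were measured, of which 6 fell, 2 rose and 26 did not pass. These are 17.6% and 5.88% of the list, against 8.07% and 3.21% of all probes, and the median difference was 0.05, against 0.08 for all probes. XBP1, a transcription factor gene of the secretory pathway, had 5.91, 5.97 and 6.13 in the matured pools, against 7.59, 7.22 and 7.83 before maturation, and fell by 1.54 (limma adjusted p = 0.000548). PTGES, a prostaglandin E synthase gene, fell by 1.57 (limma adjusted p = 0.000416). Groups without overlap were a condition for naming both genes, and 14.4% of all probes had them in the lower direction.

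CXCL12, a chemokine gene, had 6.52, 5.55 and 5.78 in the matured pools, against 3.98, 3.78 and 4.17 before maturation, and rose by 1.98 (limma adjusted p = 0.00126). Its values before maturation lay under the lower quartile of every array. IGFBP5, which encodes a binding protein of insulin-like growth factors, rose by 0.51 (limma adjusted p = 0.0177) and lost the call without replicate 1 or 2 after maturation (adjusted p = 0.0793 and 0.0719). The other genes called lower, named after their values were seen, were STC1 (-1.24), UGCG (-1.36), IGF1 (-0.63) and OVGP1 (-0.52), with limma adjusted p between 0.0186 and 0.0388. Each of these lost the call without any 1 matured array, and all 3 matured values of OVGP1 lay under the array's lower quartile. The count called lower was 2 without replicate 1, 2 or 3 after maturation and 4 without replicate 2 or 3 before it, and the count called higher ran from 1 without replicate 1 or 2 after maturation to 4 without replicate 2 before it.

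**Figure D3:**
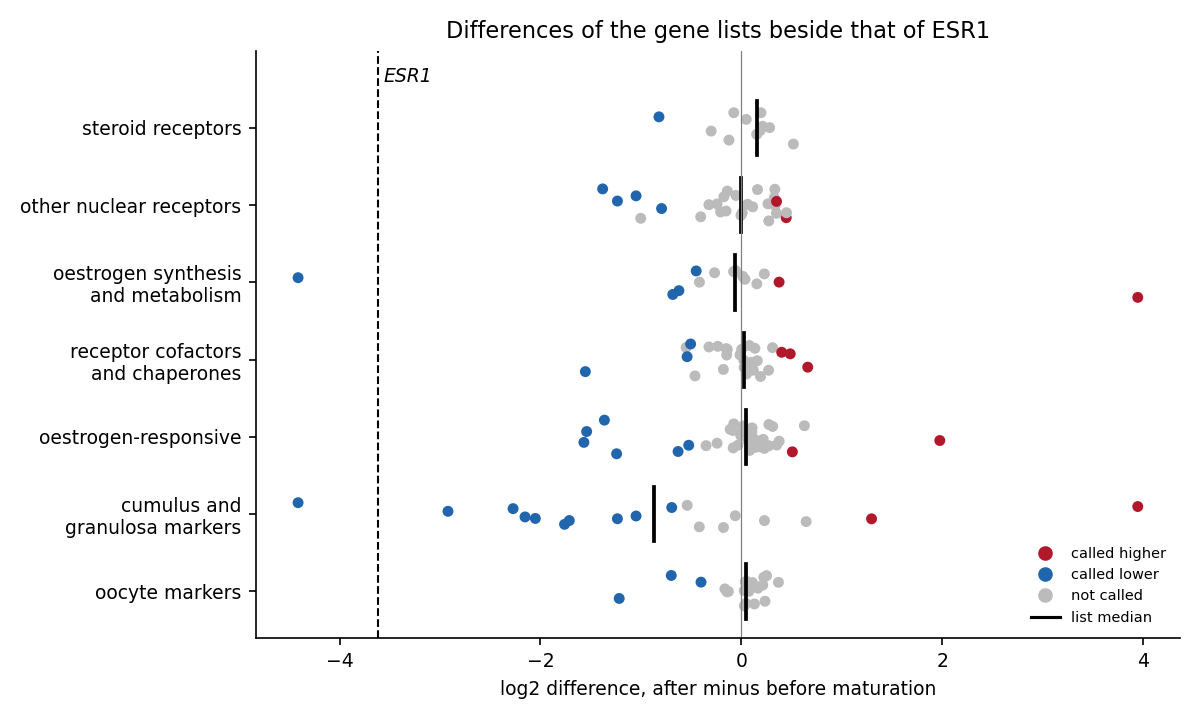
Log2 difference, after minus before maturation, of each measured member of 7 gene lists (points, red called higher, blue called lower, grey not called), with each list's median as a bar and the ESR1 difference of -3.61 as a dashed line. HSD17B1 lies beyond the line, and the cumulus and granulosa markers have the lowest median, -0.87.

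The 8 named genes whose profile over the 6 arrays lay nearest that of ESR1 were RASL11B, PRKCB, AMIGO2, HEG1, HDC, EDA, ITM2A and CCNE2. Likeness was the root mean square distance between log2 levels, each gene first centred on its own mean, so it weighs the size of the difference as well as the shape. The distances ran from 0.25 for RASL11B to 0.36 for CCNE2. The median over the 9827 genes compared was 1.89, near the distance of 1.85 between ESR1 and a flat profile. Pearson's r over the 6 arrays was 0.982 to 0.995 for the 8 genes. The arrays form 2 groups and share their processing, so r mainly repeats the difference between groups and carries no p. None of the 8 stood in any of the gene lists.

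RASL11B, a gene of a RAS-like small GTPase, had 4.55, 4.58 and 4.97 in the matured pools, against 8.10, 8.37 and 8.73 before maturation. PRKCB, the protein kinase C beta gene, had 4.32, 4.21 and 4.22 in the matured pools, against 6.95, 7.28 and 8.19 before maturation. CCNE2, a cyclin E gene, had 4.55, 4.53 and 4.55 in the matured pools, against 6.97, 7.51 and 8.07 before maturation. Like ESR1, all 3 were lowest in replicate 1 and highest in replicate 3 among the pools before maturation.

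The others had differences of -3.22 for the adhesion gene AMIGO2, -3.31 for HEG1, -3.37 for HDC, the histidine decarboxylase gene, -3.57 for EDA, the ectodysplasin gene, and -3.59 for ITM2A. All 3 matured values of PRKCB and of ITM2A, and 1 of AMIGO2, lay under the array's lower quartile, so their folds are not exact. Of the 8 genes, 8 had their highest value before maturation in replicate 3 and 5 had their lowest in replicate 1, where 31.8% and 32.1% of all named genes did. These genes were picked for their likeness to ESR1 in these arrays, replicates included, so the counts are a description.

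**Figure D4:**
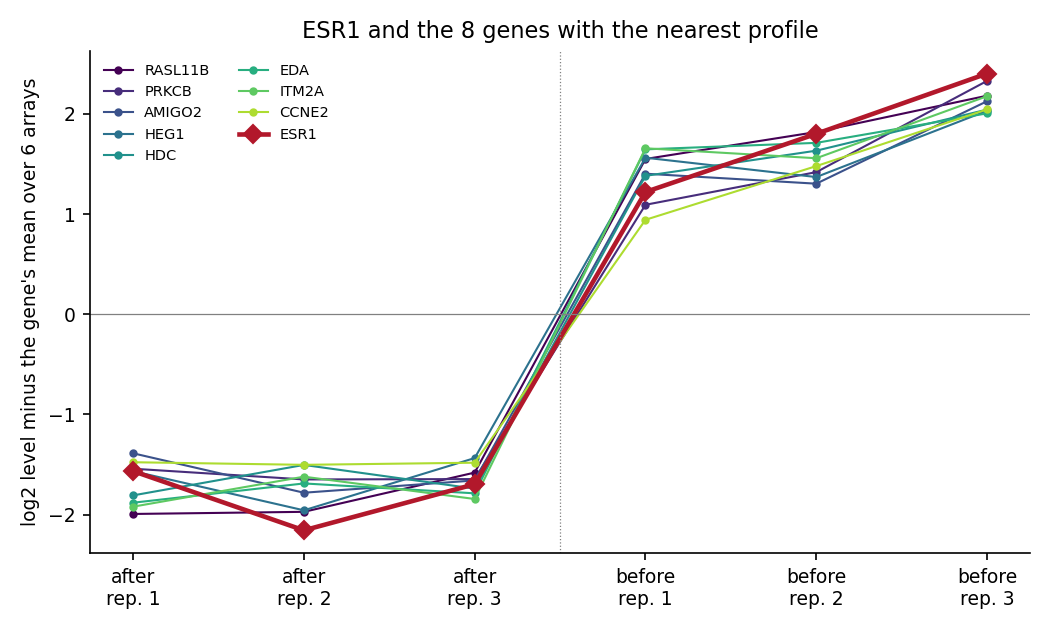
Log2 level minus each gene's mean over 6 arrays (vertical axis) for ESR1 (red diamonds) and the 8 genes with the nearest profile, by array, 3 after and 3 before maturation. ESR1 runs from 7.09 to 8.27 and PRKCB from 6.95 to 8.19 before maturation (levels before centring), and replicate 3 before maturation is the highest array of all 9 genes.

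The genes beside ESR1 in the RefSeq order of the pig genome had smaller differences. ESR1 was chosen for its difference, so this contrast is a description too. On one side the 5 nearest named and measured genes were SYNE1, MYCT1, VIP, FBXO5 and MTRF1L, and on the other CCDC170, ARMT1, RMND1, ZBTB2 and MTHFD1L. Of the 10 genes 1 fell, 0 rose and 9 did not pass limma's test, against 8.07% and 3.21% of all probes. At an unadjusted p under 0.05, 3 of the 10 were lower and 2 higher, and the share of all probes at that threshold was not computed. Differences ran from -0.83 for MTHFD1L to 0.24 for MYCT1.

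CCDC170, the gene next to ESR1, had 4.73, 4.58 and 4.50 in the matured pools, against 4.48, 4.57 and 4.62 before maturation, which overlapped (difference 0.05, limma adjusted p = 0.767). SYNE1, a gene of the nuclear envelope and the nearest measured gene on the other side, had 6.38, 6.67 and 6.82 in the matured pools, against 7.20, 6.86 and 7.85 before maturation. Its difference of -0.68 did not pass (limma adjusted p = 0.102), but adjusted p was 0.0310 when the replicate number was a block, and 0.0439 when replicate 2 before maturation was left out. MTHFD1L, which encodes a mitochondrial enzyme of folate metabolism, fell by 0.83 (limma adjusted p = 0.0116) and lost the call without replicate 1 or 2 after maturation (adjusted p = 0.0561 and 0.0592).

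**Figure D5:**
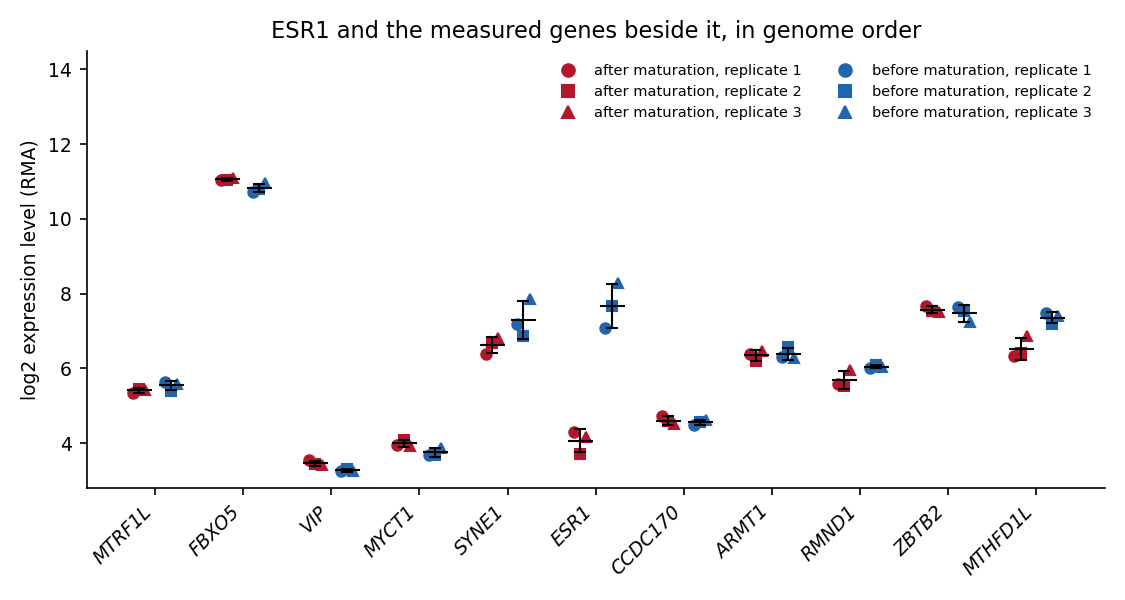
Log2 expression level (vertical axis) of ESR1 and the 10 measured genes nearest to it, in genome order, in each array, red after and blue before maturation, with bars for the mean and SD of 3 arrays. The groups lie far apart for ESR1, with means of 4.06 after and 7.68 before maturation, and within 0.83 of each other for the 10 neighbours.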

How the data were processed

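Total RNA of 6 oocyte pools was measured on Affymetrix arrays, 3 after and 3 before maturation. The deposited table holds log2 expression values that the authors made with RMA, per the submitters' processing notes. For RMA, the version, options and probe filter were not given in the sources used here. A log2 scale was taken from RMA and the value range, and RMA as usually run subtracts background, quantile-normalizes and summarises probes, which draws dim levels together.

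Of 12258 probes 10922 had 1 gene symbol in the platform annotation (a symbol repeated in a cell counted once), 268 had several and 1068 had none listed. Symbols were updated through gene identifiers to RefSeq (Sscrofa11.1), which changed 6 and gave gene order, but no coordinates were taken from it. For genes with several probes the brightest was used.

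A linear model per probe, after minus before, was fitted in R 4.3.3 with limma 3.58.1 (lmFit, then eBayes). The two-sided p-values were adjusted by Benjamini and Hochberg's method over the whole table, and an adjusted p under 0.05 was called. An exact permutation test of 3 against 3 arrays cannot give a two-sided p under 0.1. ESR1, the gene lists and the tests were chosen with earlier results of these data known. The named genes were ESR1, all measured steroid receptors, up to 4 called genes without overlap per other list by smallest p (the 2 smallest p where fewer than 2 qualified), the 8 nearest profiles, 5 neighbours on each side and 11 fixed genes, in all 64 in the table. FSHR and GPER1, also fixed, were not analysed here. All contrasts share the same 6 arrays.

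The deviations of same-numbered arrays from their group's mean correlated at 0.283, 0.120 and 0.142, which by the criterion of 0.1 pairs them. The labels say only biological replicates, and the fit without the block was kept. Replicates differed by a median of 0.125 to 0.168, so none was a copy. Alternatives were the replicate block, 5 other scalings, a filter on dim probes, trend and robust, 1 probe per gene and leaving out each array. Tables used Python 3.11.15 and pandas 2.3.3, and figures matplotlib 3.10.9.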

Additional observations from a re-analysis of the deposited data

How the results depend on the processing

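The ESR1 difference of -3.61 stayed negative under all 15 alternatives and moved by more than the replicate spread of 0.47 only with ribosomal protein genes held level, to -2.90, a scaling that shifts the median of all probes by 0.72 and leaves ESR1 relative to it at -3.69. It was -3.61 with the replicate block as well, and -3.91 to -3.32 leaving out 1 array. Of all probes 394 were called higher and 989 lower; the count higher was 621 with the replicate block, 596 with a repeated quantile normalization, 254 with cyclic loess, 915 with a common median, 175 with oocyte markers held level and 10201 (287 lower) with ribosomal protein genes held level. Decreases, 71.5% of the calls, were 80.6% with cyclic loess. Leaving out 1 array gave 103 to 434 higher and 531 to 1013 lower.

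With ribosomal protein genes held level, 10201 of 12258 probes were called higher and 287 lower. Of 11 steroid receptors other than ESR1, 9 were called higher and 0 lower, and of 27 other nuclear receptors 19 and 2. Of 14 steroid synthesis genes 8 and 1 were called, of 27 cofactor genes 20 and 1, and of 34 oestrogen-responsive genes 26 and 4. These counts carry the shift of all probes. The repeated quantile normalization called 1 steroid receptor and 4 oestrogen-responsive genes higher and 2 synthesis and 1 cofactor genes lower. The replicate block called 1 steroid receptor higher (PAQR7), added SOX17 and SYNE1 among the genes named by rule and ended none of their calls. Cyclic loess called 1 cofactor gene higher and the common median 6 oestrogen-responsive genes. Oocyte markers held level left 0 other nuclear receptors, 1 synthesis and 1 cofactor gene called higher, and trend and robust 1 other nuclear receptor and 4 oestrogen-responsive genes. Leaving out 1 array gave, higher and lower, 0 and 0 to 1 steroid receptors, 0 to 1 and 2 to 4 other nuclear receptors, 1 and 1 to 5 synthesis genes, 1 to 2 and 1 to 3 cofactor genes, and 1 to 4 and 2 to 5 oestrogen-responsive genes.

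Differences that took the other sign with ribosomal protein genes held level were PGR (0.64), NR3C1 (0.59), PGRMC2 (0.42), FDXR (0.0350), HSD17B10 (0.27), UBE3A (0.18), ZP3 (0.0198), ZP4 (0.32), SYNE1 (0.0372), MTRF1L (0.58), ARMT1 (0.68), RMND1 (0.36) and LHCGR (0.18). Others lay near 0: PGR (0.0459), PAQR8 (-0.0479), CCDC170 (-0.0437) and ARMT1 (0.11) with the repeated quantile normalization, PAQR8 (-0.0549), CCDC170 (-0.0582) and GDF9 (-0.0202) with cyclic loess, and ARMT1 (0.0228) with a common median. Leaving out 1 array gave both signs for PAQR8 (-0.0393 to 0.101), CCDC170 (-0.0144 to 0.0982), ARMT1 (-0.0908 to 0.0561) and ZBTB2 (-0.0163 to 0.193). The cause was not tested beyond the shift each scaling applies. Signal over background was not used here, so dim levels such as ESR1 after maturation have no stated floor.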

Other observations

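Genes of cumulus expansion, the hyaluronan matrix that cumulus cells build, moved both ways in the arrays where ESR1 was lower. Of 18 measured genes 5 rose and 3 fell with limma, against 3.21% and 8.07% of all probes, and the median difference was 0.19, against 0.08 for all probes. HAPLN1, whose product links hyaluronan to proteoglycans, averaged 6.41 ± 0.24 in the matured pools and 3.90 ± 0.09 before maturation (SD, n = 3 each). It was named among the called genes whose groups did not overlap. CD44, the hyaluronan receptor gene, rose by 1.21 and PTGS2, a prostaglandin synthase gene, by 1.11 (limma adjusted p = 0.000548 and 0.000752). All 3 values of HAPLN1 and of PTGS2 before maturation lay under the array's lower quartile, and detection was not assessed. PTGES, the next enzyme of that prostaglandin pathway, fell by 1.57 (limma adjusted p = 0.000416). VCAN and RUNX1, the other genes called lower, both lost the call without any 1 matured array, which left 1 gene lower, and PTX3 lost its call without any 1 array other than replicate 3 after maturation.

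Markers of other ovarian cell types were called in both directions. Of 13 theca and stroma markers 2 rose (POSTN by 1.20, COL3A1 by 0.37) and 1 fell (ACTA2, by 1.93), against 3.21% and 8.07% of all probes, with a median difference of 0.05 (limma adjusted p = 0.0250, 0.0493 and 0.000585). POSTN and COL3A1 lost the call without replicate 1 after maturation (adjusted p = 0.105 and 0.154) and without some other arrays. In both genes all 3 values before maturation and 1 matured value lay under the array's lower quartile. Of 7 endothelial markers 0 were called in either direction with limma. At an unadjusted p under 0.05, 2 were higher, and the share of all probes at that threshold was not computed. The log2 differences of SOX17 and KDR were 0.51 and 0.23, and all 3 values of KDR in each group lay under the array's lower quartile. With the replicate number as a block SOX17, the theca and stroma marker DCN and the leukocyte marker CD14 were called higher (adjusted p = 0.0369, 0.0440 and 0.0470). Of 6 leukocyte markers 1 rose (CD3E, by 0.48, limma adjusted p = 0.0418), and TYROBP had a log2 difference of 0.41 (limma adjusted p = 0.0868). CD3E lost the call without any 1 array other than replicate 2 before maturation (adjusted p between 0.0866 and 0.122). LHCGR, the luteinising hormone receptor gene, had 5.57, 5.36 and 5.13 in the matured pools, against 5.26, 5.96 and 6.46 before maturation, which overlapped (limma adjusted p = 0.221).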
